A study of Homo sapiens with 6 samples.

Results

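Potassium channel genes were examined in A549, an established line of lung adenocarcinoma cells from human, after transfection with siRNA against the ribosomal protein gene RPS19. The members are the genes whose symbol in the deposited table is KCN followed by letters, a number and at most 1 further letter, on chromosomes 1 to 22 and X. Antisense and intronic transcripts of these genes carry other symbols and are not members. The rule gave 94 genes of the 63152 counted, each with its own symbol. It used names and positions and no measured value.

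One group, siRPS19, received a pool of siRNAs against RPS19 (siGENOME SMARTpool), and the other, siOTP, a non-targeting siRNA of a different product line (ON-TARGETplus). Both were reverse transfected at 10 nM with the reagent DharmaFECT1, and total RNA was taken at 72 hours for paired-end TruSeq libraries. Each group had 3 libraries, which the labels call biological replicates, with 20814110 to 23889372 counts on genes per library. The libraries come from 1 cell line and 1 siRNA pool per group, so target, pool and siRNA chemistry cannot be told apart.

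Potassium channels let potassium leave or enter the cell and set the membrane potential. In epithelia they hold the driving force for chloride secretion and sodium uptake, and they take part in the control of cell volume. Voltage-gated pore subunits open on depolarisation, and silent subunits carry no current alone but alter the channels they join. Other pores open with calcium or sodium inside the cell, inward rectifiers pass potassium best into the cell, and two-pore-domain channels leak at rest. Accessory subunits form no pore and tune gating or transport to the membrane.

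RPS19 fell 35.3-fold, to 44.6, 36.0 and 44.4 CPM (read counts scaled to library size with TMM factors) in siRPS19 libraries, against 1474, 1374 and 1567 CPM in siOTP libraries (edgeR quasi-likelihood adjusted p = 4.98e-12). All 6 listed epithelial markers were present, with a summed level of 3394 to 3786 CPM in siRPS19 libraries and 5222 to 5647 CPM in siOTP libraries. KRT7, KRT8, KRT18 and EPCAM were called lower. KRT19 was called higher, at 245 ± 9.98 CPM in siRPS19 libraries and 35.8 ± 3.24 CPM in siOTP libraries (SD, 3 in each group), as was CDH1. CD3E and PECAM1, of leukocytes and endothelium, had no count, but other genes of both lists had some. VWF summed to 10 counts over siRPS19 and 1 over siOTP, CDH5 to 6 and 2, and PTPRC to 4 and 1. The leukocyte marker CD14 did have counts, with a mean of 2.34 CPM in siRPS19 and 1.74 CPM in siOTP. Sums over these marker lists are given further below. Reads outside genes took 5.13% to 6.36% of entries in siRPS19 and 3.39% to 3.85% in siOTP.

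The upstream sequence of 3 members is shown because they are the most abundant per transcript length, the most raised and the most lowered of those with at least 1 CPM on average. They are the 250 bases before the start site from RefSeq (GRCh38.p14, minus strand, written 5′ to 3′), with the GC box GGGCGG or its reverse complement in capitals. KCNN4 lies at chr19:43780974-43781223, KCNA7 at chr19:49072700-49072949 and KCNK5 at chr6:39229476-39229725.

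KCNN4: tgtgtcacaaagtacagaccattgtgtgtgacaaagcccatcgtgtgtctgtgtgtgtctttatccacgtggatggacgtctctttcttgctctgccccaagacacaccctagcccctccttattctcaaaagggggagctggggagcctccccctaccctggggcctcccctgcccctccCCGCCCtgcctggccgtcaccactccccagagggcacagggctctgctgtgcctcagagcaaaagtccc

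KCNA7: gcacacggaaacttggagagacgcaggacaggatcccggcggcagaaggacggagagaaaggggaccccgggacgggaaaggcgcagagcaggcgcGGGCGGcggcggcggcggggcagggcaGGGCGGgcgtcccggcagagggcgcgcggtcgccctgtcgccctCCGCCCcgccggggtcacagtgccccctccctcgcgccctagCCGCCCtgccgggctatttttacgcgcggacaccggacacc

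KCNK5: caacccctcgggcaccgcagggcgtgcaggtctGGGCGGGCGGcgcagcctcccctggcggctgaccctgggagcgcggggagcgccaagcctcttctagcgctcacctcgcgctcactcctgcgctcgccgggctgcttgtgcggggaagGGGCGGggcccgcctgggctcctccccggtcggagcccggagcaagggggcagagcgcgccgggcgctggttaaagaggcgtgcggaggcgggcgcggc

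KCNN4 had 1 such box, KCNA7 had 4, and KCNK5 had 3, of which a pair overlap. The window was 60.0% G or C in KCNN4, 75.2% in KCNA7 and 77.2% in KCNK5, against a median of 58.0% over all 35116 promoters of the table. Of the members, 69 matched the table. The GC box, on either strand, was in 13 of the 17 matched members that rose, in all 6 matched members that fell and in 7 of the 8 that were tested and did not pass. It was in 13 of the 38 matched members too low to test and in 42.6% of all promoters. The 10-base half-site of p53 was in 1 of the 17 raised members, KCNIP2, in none of the 6 lowered ones and in 5.57% of all promoters. The letters TATAAA were in 2 of the 17, in none of the 6 and in 10.7% of all promoters.

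More potassium channel genes were detected after RPS19 siRNA. Counting a gene as detected with at least 1 count in each of the 3 libraries of a group, 65 of the 94 members were detected in siRPS19 and 56 in siOTP. In both groups 54 were detected. The 11 that met this rule in siRPS19 alone were KCNE1L, KCNH5, KCNH8, KCNJ4, KCNJ10, KCNJ15, KCNK10, KCNK13, KCNN3, KCNS2 and KCNT2. KCND3 was among the 2 that met it in siOTP alone, with 0, 2 and 3 counts in siRPS19. Among all 63152 genes counted, 3145 met it in siRPS19 alone and 1006 in siOTP alone. A single library without a count is enough to miss the rule, and of the 11 only KCNH8 had no count in siOTP. Over all genes the same rule detected 24236 in siRPS19 and 22097 in siOTP, or 38.4% and 35.0%, where the members gave 69.2% and 59.6%. Only 50.7% of all genes had a count in any siRPS19 library and 47.0% in any siOTP library, against 84.0% and 75.5% of the members. All genes are thus not a like background for the members. The share of reads outside genes moved in the same direction as these counts, and its part in them was not tested. In bulk RNA, a lower share of cells with a transcript and less of it per cell cannot be told apart.

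**Figure D1:**
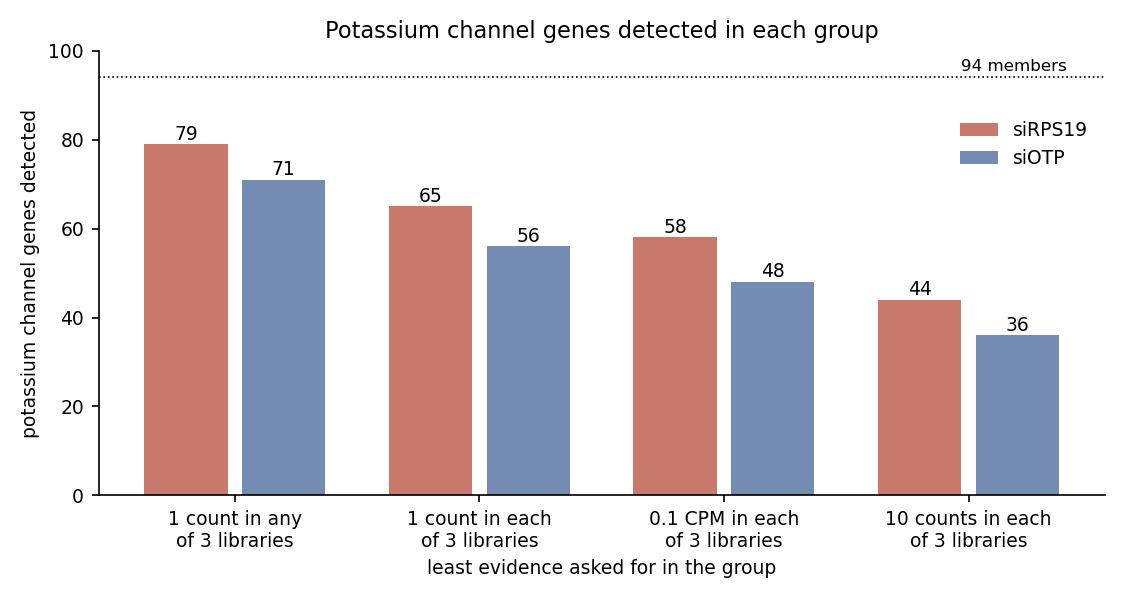
Number of potassium channel genes (vertical axis) detected in siRPS19 and siOTP under 4 rules of rising strictness (horizontal axis); the dotted line marks all 94. At 10 counts in each of the 3 libraries, 44 (46.8%) were detected in siRPS19 and 36 (38.3%) in siOTP, where all genes gave 26.3% and 24.0%.

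No count was found in any library for 14 members. They are KCNA1, KCNA3, KCNA4, KCNA5 and KCNA6, the voltage-gated subunit KCNB2, the silent subunit KCNG4, the accessory subunits KCNIP1 and KCNMB2, the inward rectifier KCNJ13, the two-pore-domain genes KCNK16, KCNK17 and KCNK18, and KCNU1. A further 34 held between 1 and 46 counts over the 6 libraries and were too low to test. For a gene at 0 in a group this depth allows up to 3 counts in sum over its 3 libraries, a limit that covers counting error only.

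Except for KCNJ15, the low genes named here were picked for at least 10 counts over 1 group and at most 3 over the other. Their inequality follows from that choice, and the ratios and intervals describe the picked counts and are no test. How many of all low genes meet that rule was not counted. KCNH8, a voltage-gated subunit expressed in brain, had 9, 8 and 9 counts in siRPS19 and none in siOTP. With siOTP set to 3 counts in sum, the limit a count of 0 allows, that is at least 7.1-fold higher. Its relative KCNH5 summed to 22 counts in siRPS19 and 2 in siOTP, a ratio of 9.01 (95% counting interval 2.22 to 79.1). KCNT1, a sodium-activated pore, summed to 21 and 3 (ratio 5.74, interval 1.71 to 30.0), and KCNK13, a two-pore-domain subunit, to 14 and 2 (ratio 5.74, interval 1.32 to 52.0). For KCNN3, a small-conductance calcium-activated pore, the sums were 10 and 3, and the interval of the ratio, 0.703 to 15.4, spans equality. KCNJ15, an inward rectifier of secretory epithelia, had 4, 3 and 4 counts in siRPS19 and 0, 4 and 2 in siOTP, so the groups overlapped.

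Of the 94 members, 46 passed the filter on low counts, which kept genes with about 10 counts in at least 3 libraries. A member could pass through 1 group alone. Among these 46, 26 rose and 9 fell at an adjusted p under 0.05, and 11 did not pass. Over all 17171 genes tested, 78.3% were called, 39.5% higher and 38.9% lower, where the tested members gave 56.5% higher and 19.6% lower. Low genes have another background, and 35 of the 46 members had a mean under 5 CPM. Of all 5674 tested genes under 5 CPM, 65.4% were called, 46.7% higher and 18.7% lower, and of the 35 members 54.3% and 17.1%, so the members' shares lie near those of low genes in general. The median log2 fold change was 0.42 over the 46 tested members and 0.02 over all tested genes. Under 5 CPM it was 0.54 over the 35 members and 0.46 over all tested genes.

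Changes of at least 2-fold were counted as well. Past the test, 19 of the 46 members were at least 2-fold higher and 5 at least 2-fold lower, or 41.3% and 10.9%, where all tested genes gave 18.5% and 12.4%. Under 5 CPM, 15 of 35 members (42.9%) were at least 2-fold higher and 4 at least 2-fold lower, where all such genes gave 33.6% and 10.1%. In 34 of the 46 members (73.9%) no siRPS19 value lay within the siOTP range or the reverse, where all tested genes gave 79.7%. At 5 CPM or more stood 11 members, of which 7 rose, 3 fell and KCNQ5 did not pass. Over all 17171 tested genes of any level, 6778 (39.5%) were higher and 6673 (38.9%) lower. Of these genes, 5674 lay under 5 CPM, with 2651 higher and 1059 lower. The rest, at 5 CPM or more, thus held more lower calls than higher ones. Their shares were not computed here, so the 11 stand beside these counts alone.

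**Figure D2:**
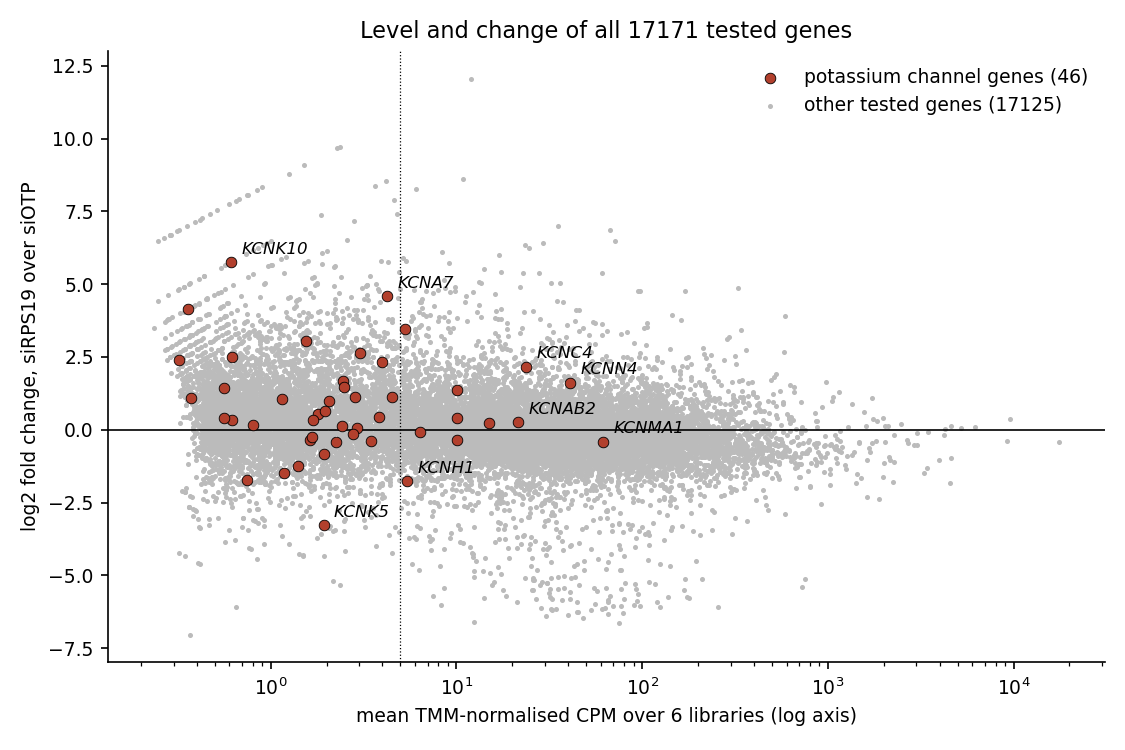
Mean level over the 6 libraries (horizontal, log axis) and log2 fold change, siRPS19 over siOTP (vertical), for the 46 tested potassium channel genes (red) and all other tested genes (grey). Most members lie left of the dotted line at 5 CPM, and KCNK10 and KCNA7 stand highest among the members labelled, with KCNK5 the lowest.

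Among the voltage-gated pore subunits, 7 of 13 tested genes rose and 4 fell, with a median log2 fold change of 1.14. Counts by class, here and below, stand against 39.5% higher and 38.9% lower over all tested genes. Under 5 CPM these shares were 46.7% and 18.7%. KCNA7 (ENSG00000104848, chromosome 19, 49570675 to 49576198, hg19), a Shaker-type subunit best known from muscle, had 9.62, 7.42 and 7.33 CPM in siRPS19 against 0.336, 0.304 and 0.361 CPM in siOTP. Every siRPS19 library stood far above every siOTP library, a log2 fold change of 4.59 ± 0.22 (SE; edgeR adjusted p = 1.12e-13). It overlaps no annotated gene.

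KCNC4 (ENSG00000116396, chromosome 1, 110753965 to 110825722), a fast-inactivating subunit of high threshold, was the most abundant raised gene of the class. Its level was 37.0, 39.3 and 40.1 CPM in siRPS19 libraries and 9.35, 7.45 and 9.13 CPM in siOTP libraries, a log2 fold change of 2.16 ± 0.08 (SE; edgeR adjusted p = 7.17e-16). Its groups did not overlap.

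KCNQ1 (ENSG00000053918, chromosome 11, 2465914 to 2870339), the pore of a current that repolarises the heart and recycles potassium in epithelia, had 2.42, 3.25 and 2.65 CPM in siRPS19 against 0.432, 0.405 and 0.155 CPM in siOTP. It rose 8.17-fold without overlap of the groups. The long noncoding RNA KCNQ1OT1 runs antisense within it, with 2775 counts over siRPS19 and 1539 over siOTP (called higher, log2 fold change 0.56). The kit is not stated to mark strand, so reads of both genes cannot be told apart where they overlap.

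KCNQ3, a subunit of the M current of neurons, rose 6.23-fold, with 5.92, 5.38 and 4.35 CPM in siRPS19 and 0.815, 1.11 and 0.567 CPM in siOTP. KCNQ5 did not pass, at a log2 fold change of -0.09. KCND1, a pore of the transient A-type current, rose 2.21-fold without overlapping groups.

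The ether-a-go-go genes KCNH1, KCNH3 and KCNH4 fell, and none of the 4 tested rose. KCNH5, KCNH6, KCNH7 and KCNH8 were too low to test, so the family as a whole was not judged. Their sums in siRPS19 and siOTP were 22 and 2, 11 and 7, 1 and 0, and 26 and 0. KCNH5 and KCNH8 were named above for that inequality. KCNH1 (ENSG00000143473, chromosome 1, 210856555 to 211307457), which many tumours express, had 2.58, 2.69 and 2.15 CPM in siRPS19 against 8.44, 7.85 and 8.92 CPM in siOTP. Its log2 fold change was -1.76 ± 0.13 (SE; edgeR adjusted p = 1.52e-10). The intronic transcript KCNH1-IT1, inside it on the same strand, had 10 counts over siRPS19 and 44 over siOTP and was also called lower. KCNH4 fell 2.38-fold, to 1.08, 0.651 and 0.745 CPM against 1.73, 2.63 and 1.60 CPM. KCNH3 fell 1.27-fold, but scaled by library totals it no longer passed (log2 fold change -0.06, adjusted p = 0.609), nor with upper-quartile factors (-0.17, 0.116). It overlaps MCRS1, which fell too. KCNH2, the cardiac channel known as hERG, was at a log2 fold change of -0.34 and did not pass.

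**Figure D3:**
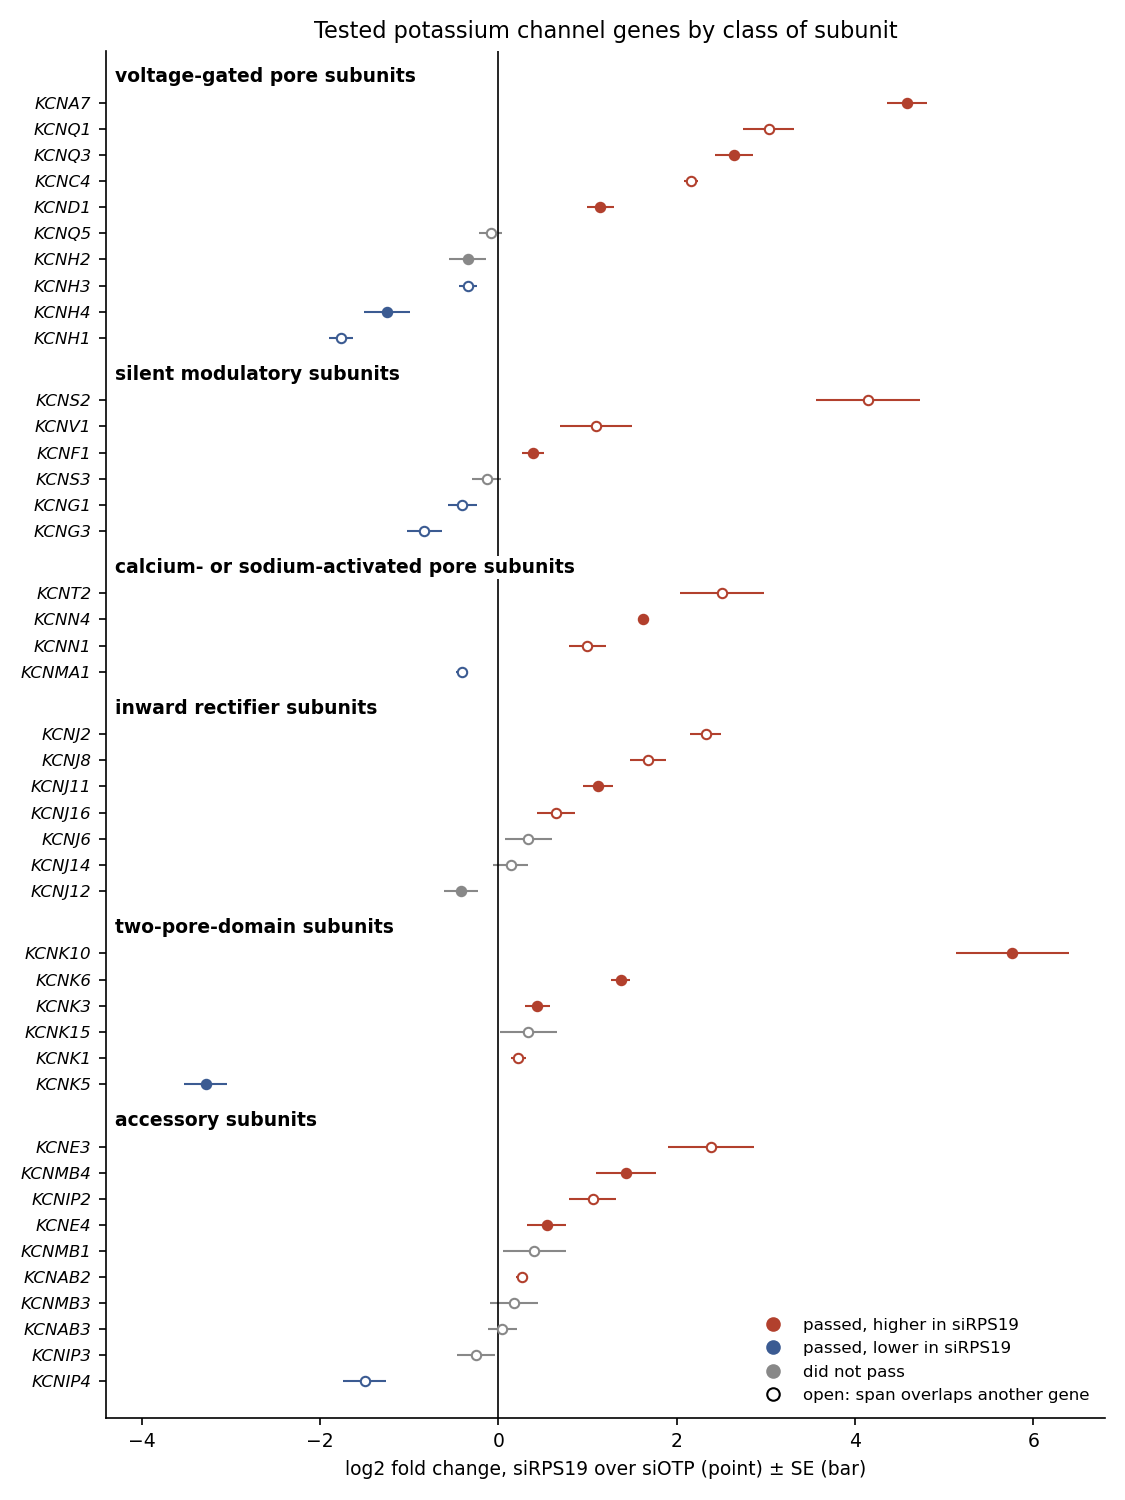
Log2 fold change, siRPS19 over siOTP, with its SE for 43 of the 46 tested potassium channel genes, grouped by class of subunit; red passed higher, blue passed lower, grey did not pass, and open points overlap another annotated gene. No tested inward rectifier passed lower, where 18.7% of all tested genes under 5 CPM did. KCNK5 lies apart at -3.28 among the two-pore-domain genes.

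Silent subunits moved both ways, with 3 of 6 tested genes higher and 2 lower. KCNF1, the most abundant of them per length, had 10.23, 10.97 and 12.99 CPM in siRPS19 against 8.97, 7.09 and 10.0 CPM in siOTP and rose 1.31-fold. KCNS2 summed to 50 counts in siRPS19 and 2 in siOTP (ratio 20.5, 95% counting interval 5.38 to 174), and it overlaps STK3, with 1838 and 2300 counts, which was called lower. KCNV1 rose 2.14-fold at 0.507 ± 0.102 CPM in siRPS19 and 0.234 ± 0.0610 CPM in siOTP (SD, n = 3 each), a call lost without siRPS19 replicate 3 (adjusted p = 0.0731), without siOTP replicate 1 (0.0635), with no filter on low counts (0.0596) and with DESeq2 (0.104). KCNG3 fell 1.78-fold, to 1.23, 1.30 and 1.66 CPM against 2.69, 2.13 and 2.63 CPM. KCNG1 fell 1.32-fold, and its call ended without siRPS19 replicate 1 (adjusted p = 0.117), without siRPS19 replicate 3 (0.0721) and without siOTP replicate 1 (0.177). It also ended with library totals (adjusted p = 0.504), upper-quartile factors (0.190), a minimum mean of 1 CPM (0.0505) and DESeq2 (0.0771). KCNS3 did not pass, at a log2 fold change of -0.13 that turned to 0.15 with library totals.

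The calcium- and sodium-activated pores held the most abundant member per transcript length. KCNN4 (ENSG00000104783, chromosome 19, 44270685 to 44285409), the intermediate-conductance channel that calmodulin opens when calcium rises, had 62.4, 62.0 and 61.8 CPM in siRPS19 libraries. In siOTP libraries it had 20.4, 19.9 and 20.3 CPM. The spread within a group was far smaller than the 3.07-fold difference (log2 fold change 1.62 ± 0.05 SE; edgeR adjusted p = 9.59e-17). It overlaps no annotated gene.

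KCNMA1 (ENSG00000156113, chromosome 10, 78629359 to 79398353), the big-conductance channel opened by calcium and voltage, moved the other way. It had 55.2, 55.2 and 49.3 CPM in siRPS19 and 78.0, 70.4 and 63.5 CPM in siOTP, a 1.33-fold fall. The groups did not overlap, but with library totals the fall no longer passed (log2 fold change -0.12, adjusted p = 0.0936). KCNN1, a small-conductance relative of KCNN4, rose 2.00-fold, to 2.58, 3.04 and 2.61 CPM against 1.53, 0.962 and 1.60 CPM. KCNT2, a sodium-activated pore, had 28, 20 and 30 counts in siRPS19 and 8, 3 and 0 in siOTP. Its log2 fold change of 2.50 became 3.70 without siOTP replicate 1 and 3.12 with limma-voom.

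Of 7 tested inward rectifiers, 4 rose and none fell, with a median log2 fold change of 0.65. All 7 had a mean under 5 CPM, where 46.7% of all tested genes were higher and 18.7% lower. KCNJ2 (ENSG00000123700, chromosome 17, 68164814 to 68176189), the strong rectifier that holds the resting potential of muscle, had 5.85, 6.59 and 7.45 CPM in siRPS19 against 1.58, 1.22 and 1.13 CPM in siOTP. It rose 5.01-fold, and its antisense neighbour KCNJ2-AS1, at 40 and 16 counts per group, was called higher as well. KCNJ8 and KCNJ11 form the pores of ATP-sensitive channels, which close when cellular ATP is high. KCNJ8 had 3.50, 4.16 and 3.60 CPM against 0.863, 1.32 and 1.34 CPM and rose 3.20-fold. KCNJ11 had 3.46, 4.03 and 4.18 CPM against 1.87, 1.72 and 1.75 CPM and rose 2.17-fold.

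The sulfonylurea receptor genes ABCC8 and ABCC9 complete those channels. They were on the list of channel partners, of which 4 of 10 tested rose and 5 fell, and are named outside the naming rule, chosen after their values were seen. ABCC8 averaged 6.09 ± 0.614 CPM in siRPS19 and 1.95 ± 0.0573 CPM in siOTP, and ABCC9 2.68 ± 0.278 CPM and 1.15 ± 0.171 CPM (SD, n = 3 each). Both rose (log2 fold changes 1.64 and 1.22).

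KCNJ16, a partner of other rectifiers in kidney and brain, rose 1.56-fold, a call lost without siRPS19 replicate 3 (adjusted p = 0.0811) and without siOTP replicate 1 (0.0619). KCNJ6, KCNJ12 and KCNJ14 did not pass. KCNJ6 had 1.23, 2.00 and 2.44 CPM against 1.20, 1.27 and 2.01 CPM, so the groups overlapped, and it passed higher without siRPS19 replicate 1 (adjusted p = 0.0346) and with library totals as the scaling (0.0372). KCNJ14 passed higher with library totals (adjusted p = 0.0474). Under that scaling 6 of the 7 inward rectifiers were higher, and the median of all genes moved up by 0.29 on the log2 scale. KCNJ12 had 1.46, 2.21 and 2.07 CPM against 2.35, 2.53 and 2.79 CPM, with adjusted p = 0.0516, and it passed lower with the replicate number as a block (adjusted p = 0.0467), without siRPS19 replicate 2 (0.0252), with no filter (0.0420) and with limma-voom (0.0462). Near-identical copies of KCNJ12 are known, so its counts are uncertain.

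The two-pore-domain genes held the largest fall. KCNK5 (ENSG00000164626, chromosome 6, 39156749 to 39197226), an acid-sensitive leak channel of epithelia, had 12, 8 and 6 counts in siRPS19 and 72, 65 and 73 in siOTP. That is 0.462, 0.347 and 0.248 CPM against 3.45, 3.29 and 3.76 CPM, a log2 fold change of -3.28 ± 0.24 (SE; edgeR adjusted p = 1.00e-10). It overlaps no annotated gene.

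Of the other two-pore-domain genes, 4 of 5 tested rose. KCNK6 (ENSG00000099337, chromosome 19, 38810484 to 38819660), a weak rectifier of lysosomes and the cell surface, had 15.7, 13.7 and 14.1 CPM in siRPS19 against 6.48, 5.52 and 4.74 CPM in siOTP and rose 2.59-fold. KCNK10, a channel opened by stretch and lipids, had 22, 34 and 32 counts in siRPS19 and 1, 0 and 0 in siOTP, a ratio of 72.1 with a 95% counting interval of 12.6 to 2879. The single siOTP count lies in replicate 1. Without that library the siOTP group is at 0, and the fitted log2 fold change was 7.77, against 5.76 with all libraries and 5.05 with limma-voom.

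KCNK3, an acid-sensitive channel expressed in lung vessels, rose 1.35-fold, with 4.66, 4.12 and 4.47 CPM in siRPS19 and 3.07, 3.14 and 3.61 CPM in siOTP. KCNK1, a weak inward rectifier of many epithelia, had 14.3, 17.7 and 16.6 CPM against 13.7, 13.3 and 14.7 CPM. The groups overlapped, and its 1.17-fold rise no longer passed without siRPS19 replicate 2 (adjusted p = 0.123), siRPS19 replicate 3 (0.0606), siOTP replicate 1 (0.0659) or siOTP replicate 2 (0.0803), with no filter (0.0897) or with DESeq2 (0.0608). KCNK15 did not pass.

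Of 10 tested accessory subunits, 5 rose and 1 fell. KCNAB2, a cytoplasmic beta subunit of Shaker channels and the most abundant accessory gene per length, had 23.1, 22.5 and 24.5 CPM in siRPS19 against 19.5, 18.7 and 20.1 CPM in siOTP and rose 1.20-fold. It overlaps NPHP4, with 1116 and 1046 counts per group, which was called lower. KCNE3, which holds KCNQ1 open in airway and gut epithelium, had 18, 10 and 12 counts in siRPS19 and 2, 2 and 2 in siOTP (log2 fold change 2.38 ± 0.48 SE; edgeR adjusted p = 1.40e-04). KCNMB4, a beta subunit of the KCNMA1 channel, rose 2.70-fold at 0.817 ± 0.0586 CPM in siRPS19 and 0.301 ± 0.0578 CPM in siOTP (SD, n = 3 each), while KCNMB1 and KCNMB3 did not pass. The calcium-binding partners of A-type channels were unequal. KCNIP2 rose 2.08-fold, KCNIP3 did not pass, and KCNIP4 fell 2.83-fold, to 0.692, 0.651 and 0.497 CPM against 1.82, 1.72 and 1.70 CPM. KCNIP4 overlaps PACRGL, with 741 and 928 counts, which was called lower. KCNE4, an inhibitor of several voltage-gated channels, rose 1.46-fold with overlapping groups. Its call ended without siRPS19 replicate 1 (adjusted p = 0.0848), siRPS19 replicate 3 (0.0636), siOTP replicate 1 (0.0805) or siOTP replicate 3 (0.153), and with no filter (0.0581) or DESeq2 (0.0847). KCNAB3 did not pass, at a log2 fold change of 0.04.

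**Figure D4:**
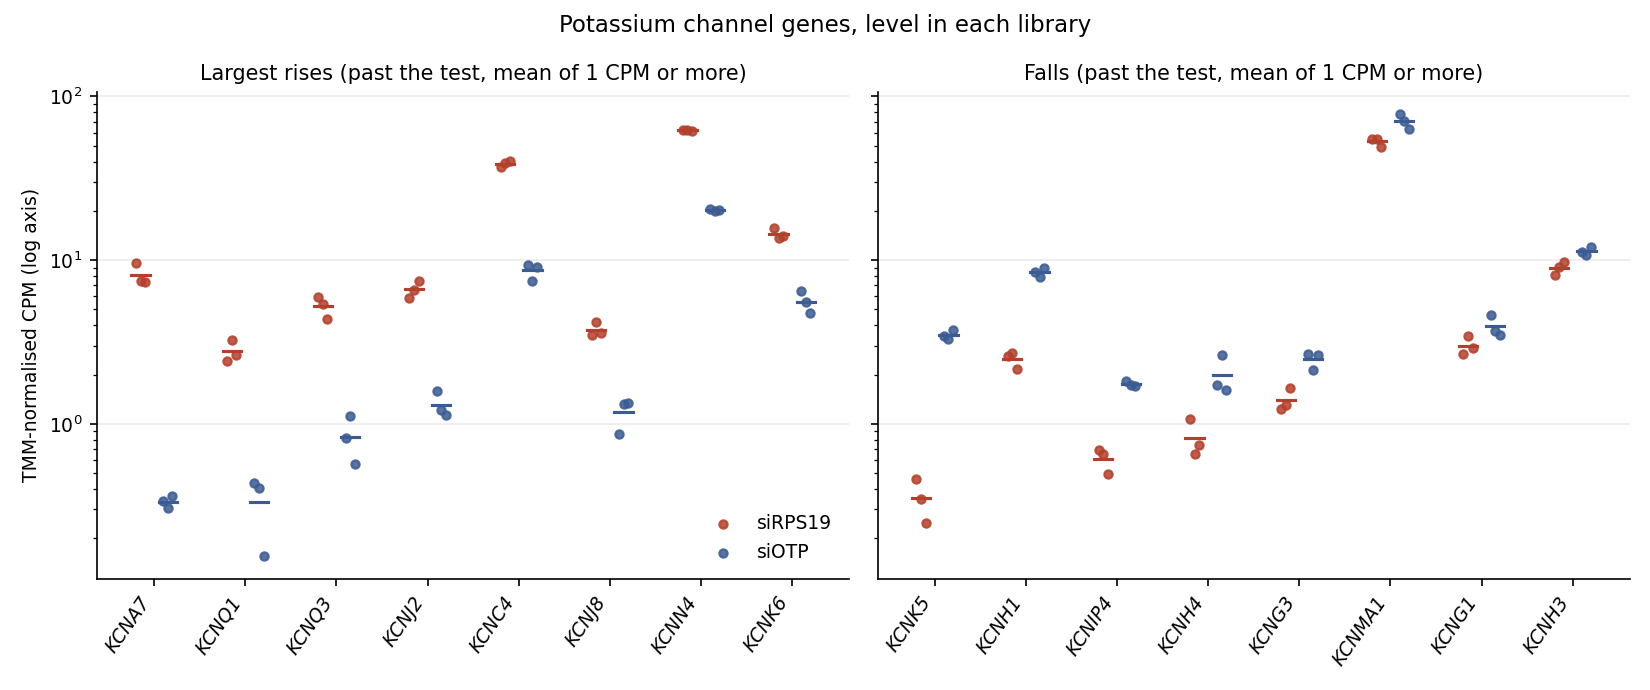
TMM-normalised CPM (vertical, log axis) in each library for 8 of the 10 largest rises and the 8 falls among potassium channel genes past the test with a mean of at least 1 CPM; points are libraries (siRPS19 left, siOTP right of each pair) and bars are means. The siRPS19 and siOTP points do not overlap for any gene drawn, and KCNN4 and KCNC4 are the only rises above 30 CPM in siRPS19.

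Levels between genes were compared as CPM per kb of the deposited transcript length. On that scale KCNN4 led in both groups, with 18.9 ± 0.0965 in siRPS19 and 6.15 ± 0.0841 in siOTP (SD over 3 libraries). Next in siRPS19 came KCNF1 at 4.98, KCNK6 at 4.65, KCNK1 at 4.58 and KCNC4 at 4.15 CPM per kb, whose library values overlap from each to the next. In siOTP, KCNK1 at 3.91, KCNF1 at 3.80 and KCNMA1 at 3.76 CPM per kb overlapped likewise, and KCNH3 stood at 2.66. By this order KCNC4 ranked 5 in siRPS19 and 12 in siOTP, KCNA7 9 and 40, and KCNK5 46 and 10. KCNMA1 has a transcript length of 18808 bases in the table, the longest of all members, so its place depends on that length. The authors' deposited table gives KCNN4 a group value of 20.76 RPKM in siRPS19 and 5.56 RPKM in siOTP.

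Summed over each class, calcium- and sodium-activated pores came to 23.01 ± 0.220 CPM per kb in siRPS19 and 10.5 ± 0.446 in siOTP, with KCNN4 giving 82.0% and 58.6% of the sums. Voltage-gated pores summed to 14.0 ± 0.228 and 9.27 ± 0.217, led by KCNC4 in siRPS19 and by KCNH3 in siOTP. Two-pore-domain genes summed to 11.0 ± 0.213 and 7.80 ± 0.227, led by KCNK6 in siRPS19 and KCNK1 in siOTP. Inward rectifiers summed to 6.43 ± 0.738 and 3.36 ± 0.286, silent subunits to 7.23 ± 0.708 and 6.53 ± 0.678, and accessory subunits to 5.38 ± 0.355 and 4.49 ± 0.0982 CPM per kb (SD, n = 3 each throughout). The sums of silent subunits overlapped between the groups and the others did not.

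**Figure D5:**
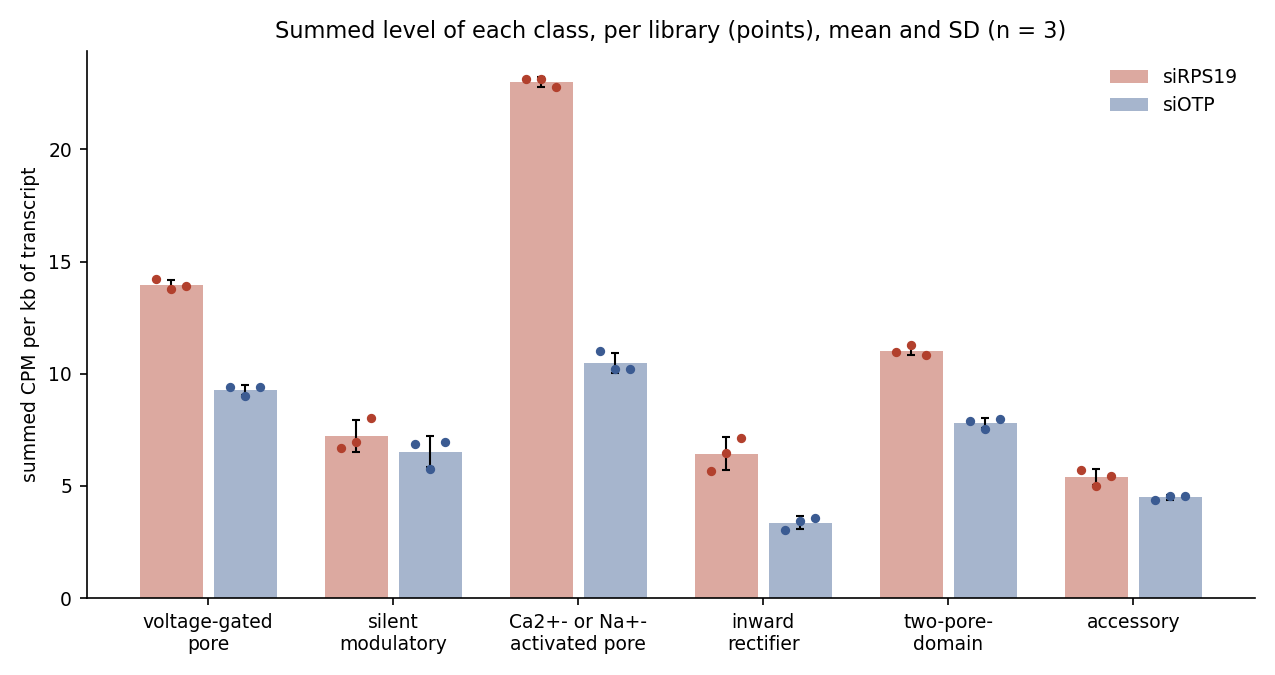
Summed CPM per kb of transcript (vertical) for the 6 classes of potassium channel gene in siRPS19 (left bar) and siOTP (right bar); bars are means, error bars SD (n = 3) and points libraries. The class with KCNN4 reaches 23.01 in siRPS19 against 10.5 in siOTP, and the silent subunits overlap between the groups.

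Other genes of ion transport were read from lists beside the members. Their counts stand against the 39.5% higher and 38.9% lower of all tested genes, and 46.7% and 18.7% of those under 5 CPM. Of 10 tested channel partners and regulators, 4 rose and 5 fell. CALM2 and CALM3 encode calmodulin, a standing subunit of KCNN channels. CALM2 fell, to 552 ± 18.8 CPM in siRPS19 libraries, against 1203 ± 44.9 CPM in siOTP libraries (SD, 3 in each group). CALM3, named outside the rule, was at a log2 fold change of 0.00 and passed higher with library totals (0.28). The scaffold gene AKAP9, which anchors KCNQ1 signalling, rose by 0.96 on the log2 scale, and the kinase gene SGK1 fell by 0.90.

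Of 6 tested subunits of the sodium-potassium pump and its relatives, which load the cell with potassium, 1 rose and 4 fell. The beta subunit ATP1B3 fell by 1.24 on the log2 scale and the regulator FXYD5 by 1.17. Of 10 tested cation-chloride cotransporter and kinase genes, 6 rose and 1 fell. The potassium-chloride cotransporter genes SLC12A4 and SLC12A7, which export potassium in volume decrease, rose by 1.60 and 1.06, and the kinase gene WNK1 fell by 0.68.

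Of 11 tested calcium channel subunits, 8 rose and none fell, with CACNA1A at a log2 fold change of 3.59, CACNB4 at 2.14, CACNB3 at 0.86 and CACNA1G at 0.47. Of 9 tested sodium channel subunits, 4 rose and 1 fell. SCN2A summed to 347 counts in siRPS19 and none in siOTP, which is at least 94.8-fold higher with siOTP set to the same 3 counts in sum. SCN4B summed to 131 and none, at least 35.8-fold higher. SCN3B rose by 3.66 on the log2 scale and SCN9A fell by 0.94. The pacemaker channel genes HCN2, HCN3 and HCN4 rose, HCN4 by 2.17. Of 10 tested genes for cation channels of organelles and cation exchangers, 4 rose (SLC24A1 and SLC9A7 among them, by 1.20 and 0.88) and 4 fell (LETM1 among them, by 1.10). Of 4 tested airway chloride and sodium channel genes, SCNN1A, SCNN1G and CLCN3 rose and CLCN2 fell.

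Markers of other cell types were read in the same libraries. The summed level of 3 neuronal markers was 163 to 194 CPM in siRPS19 and 105 to 113 CPM in siOTP, with SYT1 and RBFOX3 called higher and SNAP25 lower (log2 fold change -0.18, which turned to 0.10 with library totals). Of 4 fibroblast and smooth muscle markers, ACTA2 and PDGFRB were called higher and COL1A1 lower, and their sum was 86.3 to 91.1 CPM against 35.6 to 43.2 CPM. Cardiac markers were too low to test and summed to 0.0828 to 0.346 CPM in siRPS19 and 0.0480 to 0.155 CPM in siOTP, with MYH7 at 0. Leukocyte markers, chiefly CD14, summed to 1.85 to 2.90 CPM and 1.49 to 2.28 CPM, and endothelial markers to 0.166 to 0.304 CPM and 0 to 0.101 CPM. The part of these genes in the potassium channel results was not tested.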

How the data were processed

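TopHat2 2.0.8b, HTSeq, R 3.0.2, DESeq and the build hg19 are named, per the submitters' processing notes. How reads were assigned, and to which annotation release, is not given in the sources used here. From these steps the authors deposited whole-number read counts per Ensembl gene for 6 libraries, and an RPKM table with 1 value per group that equalled the mean count plus 1 over length and group total for 100% of genes (tolerance 0.0051 RPKM plus a relative 0.001). That table gave symbols, hg19 coordinates and lengths. The 5 entries naming no gene were left out: reads outside genes took 3.39% to 6.36% of entries and ambiguous reads 7.50% to 8.24%. A strand-marking kit is not stated.

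Genes were kept with filterByExpr (minimum count 10, minimum total 15), scaled by TMM and tested with edgeR 4.0.16 (robust glmQLFit, glmQLFTest; R 4.3.3), adjusted by Benjamini-Hochberg over 17171 genes at 0.05; adjusted p-values are from this test unless another tool or setting is named. Each SE is the log2 fold change over the square root of F. Counting intervals are exact binomial at 95% and cover counting error only.

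Alternatives were library totals, upper-quartile factors, no filter, a mean of 1 CPM, DESeq2 1.42.0, limma-voom (limma 3.58.1), a replicate block and leaving out each library. Replicate pairs differed beyond sampling noise (chi-square per degree of freedom 4.40 to 16.6 over genes with 50 or more counts in a pair). By the labels, libraries with 1 number share a date across groups and so are paired. Their deviations from group means correlated across genes at 0.055, -0.095 and 0.045.

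Members and gene lists were chosen with earlier results of these data known. Named with full values by rule were members past the test with a mean of at least 1 CPM, up to 10 rises and 10 falls by size, and the 5 highest levels per group. Other tested members were named too, as were untested genes with at least 10 counts over 1 group and at most 3 over the other. In each list up to 4 genes with the smallest p were named. KCNQ1, KCNE3, KCNN4, KCNMA1, KCNK1, KCNK5, KCNJ15, KCNH1, KCNH2 and KCNJ11 were named whatever their result. Protein sequences were not used here. Some genes that the rule names are not reported here; counts and sums over groups include them.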

Additional observations from a re-analysis of the deposited data

How the results depend on the processing

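Of the 35 members past the test, 28 (22 higher, 6 lower) kept their call under each of the 13 alternatives that tested them, and 7 lost it under at least 1: KCNE4, KCNG1, KCNH3, KCNJ16, KCNK1, KCNMA1 and KCNV1. Leaving out 1 library at a time gave 22 to 26 members higher and 8 to 10 lower, with 6463 to 6697 and 6427 to 6533 over all genes. It put RPS19 between -5.19 and -5.05 and the members detected between 66 and 67 in siRPS19 and between 58 and 61 in siOTP. With a library left out the detection rule is looser, so these numbers could not fall below the 65 and 56 of all libraries. With the replicate block, 26 members were higher and 10 lower, and KCNJ12 was the one that changed. Library totals raised the median of all genes by 0.29 on the log2 scale and upper-quartile factors by 0.17. With library totals, 28 members were higher and 6 lower, and 65.8% of all calls were higher, against 50.4% with TMM. Among the 16 tested members that overlap no other annotated gene, 12 were higher and 2 lower (median log2 fold change 1.13), and among the 30 that overlap one, 14 were higher and 7 lower (median 0.30). Over all tested genes 39.5% were higher and 38.9% lower, and under 5 CPM 46.7% and 18.7%. All genes were not split by overlap, so neither count has a matched background. At 10 counts per library 36 members were detected in siOTP, against 56 at 1 count. Signs turned only for members that did not pass: KCNQ5 to 0.199 with library totals and 0.085 with upper-quartile factors (-0.171 to 0.0714 when leaving out 1 library), KCNS3 to 0.153 and 0.0403 with these scalings, KCNIP3 to 0.0338 with library totals, and KCNAB3 to -0.0075 without a filter (-0.0658 to 0.148 when leaving out 1 library, and -0.0162 without siOTP replicate 2). The cause of these changes was not tested.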
